A study of Mus musculus with 2 samples.

Results

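The genes described here are 37 members of the autophagy core machinery, chosen by symbol from the 32285 genes counted in 2 single-cell libraries of orthotopic pancreatic tumors in mice. All 37 symbols were found once in the gene lists of both libraries. The rule names symbols and uses no measured value. The study is concerned with autophagy of pancreatic stellate cells (PSCs) exposed to lactate. Macroautophagy encloses cytoplasm in a membrane that closes into an autophagosome and fuses with a lysosome. The ULK complex starts the process, the lipid kinase Vps34 marks the membrane, and paired conjugation reactions attach ATG8 proteins such as LC3 to it. Cargo receptors such as p62 tie selected cargo to the ATG8 proteins and are degraded with it. In PSCs, the collagen-producing cells of the pancreas, autophagy has been linked to activation. RNA levels of these genes do not measure autophagic flux, because most regulation of the pathway acts on proteins.

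One library was labelled FLOX and the other MCT1-KO, the latter named in the study for loss of the lactate transporter MCT1 (gene Slc16a1) in PSCs. The knockout mice carried Col1a2-CreERT2, a Cre that tamoxifen activates in cells using the Col1a2 promoter, so fibroblasts of any kind that express Col1a2 could recombine. KPC cells, a mouse pancreatic tumor line, were injected into the pancreas of male mice of both groups, and unsorted cells of the tumors were taken. The labels do not say how many mice gave each library, whether FLOX mice received tamoxifen or only its oil, or at which age they were taken. With 1 library per group there was no replicate check and no test. All differences below compare those libraries, not the genotypes, and unless stated otherwise intervals are exact 95% intervals that cover counting error only.

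After filters, 8739 cells of the FLOX library and 11689 of the MCT1-KO library remained, and 59 cell barcodes occurred in both. Each cell was assigned to a class by fixed marker genes, and a cell without a clear class was left unassigned (36.3% and 38.7% of cells). PSC-like cells, called from collagen genes, Dcn, Lum, Pdgfra and Pdgfrb, numbered 203 and 290 and held 2254225 and 2314004 UMIs (unique molecular identifiers, each standing for 1 captured RNA molecule). Their medians were 11847 and 7529 UMIs per cell. The other classes compared were macrophage-like (2503 and 2061 cells), neutrophil-like (345 and 378), T/NK-like (427 and 340), endothelial-like (76 and 93) and keratin-positive cells (1896 and 3723). The keratin-positive cells were called from Krt7, Krt8, Krt18, Krt19 and other epithelial genes. Because Perp, Sfn, Cldn7 and Itgb4, epithelial genes not used to call them, summed to only 24.8 and 30.0 CPM (UMIs of a gene per 1000000 UMIs of the class), they are not called tumor cells here. In PSC-like cells 4 fibroblast genes that were not used to call the class (Col6a3, Col14a1, Serping1 and Fbln2) summed to 2415 and 2893 CPM. These genes did not move together between the libraries, since Serping1 was at 1407 and 2015 CPM and Fbln2 at 676 and 705 CPM, while Col6a3 was at 161 and 85.6 CPM and Col14a1 at 172 and 87.7 CPM. Of the genes that called the class, Lum was at 1278 and 717 CPM and Dcn at 5425 and 7767 CPM. Dendritic-like, B/plasma-like and acinar-like cells fell under 50 cells in 1 library each and were not compared.

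Several measures moved with the library, and their part in the results below was not tested. The 10 acinar genes summed to 291 and 14775 CPM in barcodes of 10 to 100 UMIs, taken as free RNA, and to 80.3 and 933 CPM in PSC-like cells. The 9 heat shock genes were lower in the MCT1-KO library, at 7060 and 4599 CPM in PSC-like cells, and at ratios of 0.378 to 0.651 over the compared classes. The 6 leukocyte genes in PSC-like cells were at 1979 and 1427 CPM, and only 6 and 42 PSC-like cells held no UMI of them. Of the macrophage genes not used to call macrophage-like cells, Apoe, which fibroblasts also express, was at 1168 and 2426 CPM in PSC-like cells, Cd14 at 67.4 and 92.9 CPM and Fcgr3 at 26.6 and 24.6 CPM. No Krt8 or Krt18 UMI was found in 88 and 175 PSC-like cells. In PSC-like cells the level of Slc16a1 itself was 26.2 CPM (19.9 to 33.8, 59 UMIs) in FLOX against 34.6 CPM (27.4 to 43.0, 80 UMIs) in the library labelled MCT1-KO. It was thus not lower there. Keratin-positive cells held 37.3 and 46.2 CPM of Slc16a1, and the part of their RNA in the PSC-like level was not tested. Methods and labels differ on the library kit, so the end of the RNA that was captured is not certain. The removed part of the gene is not given in the sources used here, so the PSC-like level of Slc16a1 does not check the deletion. The study reports lower MCT1 in PSCs of its knockout mice, in its single-cell data and by Western blot and PCR. It also counts more acinar cells in MCT1-KO than in FLOX, and acinar-like cells here numbered 14 in FLOX and 180 in MCT1-KO. Whether the label is right cannot be told from these counts. MCT1-KO below means the library labelled so, and every direction rests on that label.

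The promoters of the members were searched for the E-box CACGTG, the core of the element through which TFEB and TFE3, the transcription factors among the members, act on lysosomal and autophagy genes. Windows from 250 bases before to 50 after a transcript start (RefSeq, GRCm38.p6) were found for 31 of the 37 members. Those without one were Map1lc3a, Becn1, Pik3c3, Rb1cc1, Atg12 and Atg16l1. The E-box, which reads the same on both strands, was present for 6 of the 31 members (19.4%), against 8.09% of the 27025 genes with a window. The longer form TCACGTGA, which contains the E-box, was present for 1 member, Atg3, and for 1.12% of all genes. The runs that hold the E-boxes are shown 5′ to 3′ on the strand of the gene with the E-boxes in capitals, because Lamp1 stands out among them with 4 copies. These matches are descriptions of letters and not binding sites.
Lamp1, chr8:13159088-13159160, plus strand: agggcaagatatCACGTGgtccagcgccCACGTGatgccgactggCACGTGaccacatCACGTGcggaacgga
Atg3, chr16:45158723-45158775, plus strand: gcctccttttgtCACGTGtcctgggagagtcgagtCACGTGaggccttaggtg
Atg7, chr6:114670952-114670981, plus strand: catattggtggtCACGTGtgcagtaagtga
Rubcn, chr16:32868437-32868466, minus strand: cgcctagcacatCACGTGtacccaggttag
Atg5, chr10:44268313-44268338, plus strand: cggagcgcttgcCACGTGgtcttggt
Atg14, chr14:47568418-47568447, minus strand: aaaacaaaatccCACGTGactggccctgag

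The 4 copies of Lamp1 began between 61 and 15 bases before its RefSeq start, the 2 copies of Atg3 at 94 and 71 bases, and the single copies of Atg7, Rubcn, Atg5 and Atg14 at 132, 88, 14 and 1 bases before theirs. For Atg7, Rubcn and Atg14 that start is not the first of the gene. It lies 27999, 9400 and 2215 bases inside the gene as annotated in GENCODE vM21, so these runs are inside the gene and not upstream of it. In the related lists of the pathway, the E-box was present for 6 of 18 genes of lysosomal hydrolases and membrane proteins with a window (33.3%) and for 4 of 11 V-ATPase subunit genes (36.4%), the proton pump that acidifies lysosomes. The E-box was also present for 3 of 13 selective autophagy receptors (23.1%), 5 of 23 genes of mTORC1 and AMPK inputs (21.7%) and 1 of 21 other autophagosome genes (4.76%). In GENCODE vM21 (GRCm38), Sqstm1 lies on chromosome 11 from 50199366 to 50210827 on the minus strand, Map1lc3b on chromosome 8 from 121590361 to 121598760 on the plus strand and Optn on chromosome 2 from 5020642 to 5064051 on the minus strand. Counts refer to whole genes, not to exons or other parts of them.

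The first question was how much of the RNA of each class came from the members. Summed over the 37 genes, neutrophil-like cells held the highest level in both libraries, at 4075 CPM (3923 to 4231) in FLOX and 4075 CPM (3893 to 4263) in MCT1-KO. PSC-like cells were second, at 3201 CPM (3127 to 3275) and 3377 CPM (3303 to 3453). Macrophage-like cells followed at 3196 CPM (3167 to 3224) and 3294 CPM (3259 to 3329), and their intervals overlapped those of PSC-like cells in each library. Keratin-positive cells came next at 2938 CPM (2918 to 2957) and 2875 CPM (2861 to 2890). Endothelial-like cells stood at 2634 CPM (2492 to 2782) and 2777 CPM (2611 to 2950), the latter overlapping keratin-positive cells. T/NK-like cells were lowest of the compared classes, at 1888 CPM (1824 to 1953) and 1862 CPM (1782 to 1944). The order of these 6 classes was thus the same in both libraries, but it depends on which members are summed. Without Sqstm1 macrophage-like cells (2878 and 3031 CPM) stood above PSC-like cells (2683 and 2744) in both libraries, and endothelial-like cells (2360 and 2524) above keratin-positive cells (2242 and 2257). Without Sqstm1, Lamp1 and Lamp2, PSC-like cells (2160 and 2153 CPM) were again above macrophage-like cells (1992 and 2056). Endothelial-like cells (2021 and 2207 CPM) were then above macrophage-like cells in both libraries and above PSC-like cells in MCT1-KO. These reduced sums are given without intervals. The endothelial-like ones rest on only 76 and 93 cells, so the place of that class in these orders is not firm. Barcodes of free RNA held 2613 and 2503 CPM, above T/NK-like cells and below PSC-like cells.

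**Figure D1:**
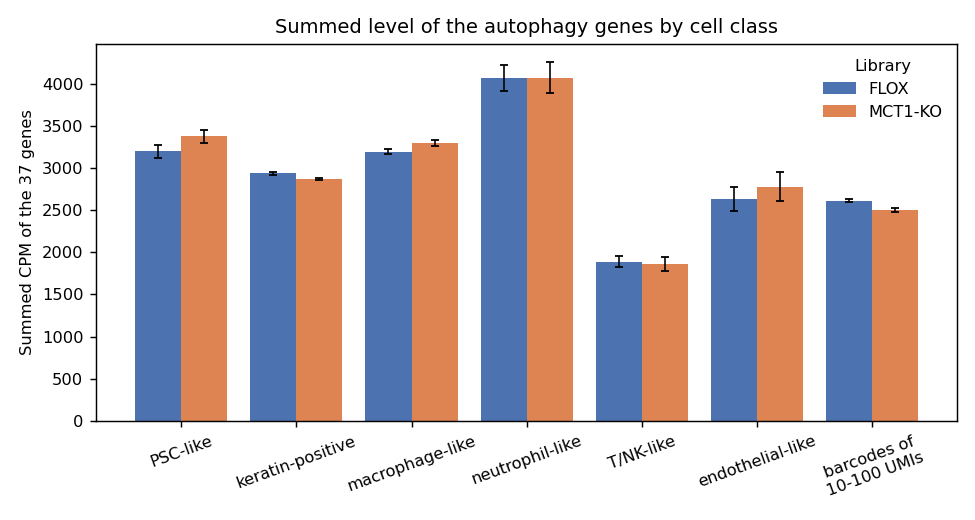
Summed CPM of the 37 autophagy genes (vertical axis, linear from 0) in each cell class and in barcodes of 10 to 100 UMIs, with FLOX in blue and MCT1-KO in orange; error bars are exact 95% counting intervals of 1 library each. Neutrophil-like cells are highest at 4075 CPM in both libraries, T/NK-like cells are lowest at 1888 and 1862 CPM, and the bars of 1 class lie close together.

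Between libraries the summed level differed little in every class. The ratio of MCT1-KO over FLOX was 1.06 (1.02 to 1.09) in PSC-like, 0.979 (0.971 to 0.987) in keratin-positive, 1.03 (1.02 to 1.05) in macrophage-like, 1.00 (0.942 to 1.06) in neutrophil-like, 0.986 (0.933 to 1.04) in T/NK-like and 1.05 (0.971 to 1.14) in endothelial-like cells. Values per cell spread far more than the libraries differed. This spread includes the counting error of each cell, which was not separated from it. The summed level per PSC-like cell had a 10th percentile of 2075 CPM, a median of 3066 and a 90th percentile of 4107 in FLOX, and 1936, 3211 and 4646 CPM in MCT1-KO. A PSC-like cell held UMIs of a median of 13 and 11 members. In PSC-like cells the sum without Sqstm1 was at 2683 and 2744 CPM, a ratio of 1.02 (0.987 to 1.06) with an interval that held 1.

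The classes differed in which members stood high or low, and the members named below for a class did so in both libraries. None is named for endothelial-like cells. Neutrophil-like cells were high in Map1lc3b, the LC3B gene whose lipid-bound protein marks autophagosomes, with 859 CPM (790 to 932) and 976 CPM (888 to 1071). In the other 5 classes Map1lc3b lay between 205 and 411 CPM. Optn, which encodes the cargo receptor optineurin, was at 195 CPM (163 to 232) and 147 CPM (114 to 187) in neutrophil-like cells and at 11.2 to 35.4 CPM in the other classes. Atg2a, a lipid transfer protein of the growing membrane, was at 114 and 71.4 CPM in neutrophil-like and at 16.9 to 27.4 CPM elsewhere. Atg7, the activating enzyme of both conjugation reactions, was at 79.7 CPM (59.7 to 104) and 73.6 CPM (51.0 to 103) there, against 7.99 to 38.1 CPM in the other classes. Neutrophil-like cells were shallow, at medians of 1537 and 1113 UMIs, so each of these values rests on 33 to 571 UMIs.

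Macrophage-like cells held the most Lamp1 and Uvrag of the 6 compared classes. The other Vps34 complex genes were not all highest there, since in FLOX Becn1 was at 39.7 CPM against 56.1 in T/NK-like cells and Ambra1 at 60.9 against 105 CPM. Lamp1, a main glycoprotein of the lysosomal membrane, stood at 601 CPM (589 to 613) and 692 CPM (676 to 709), while the other classes held 53.1 to 238 CPM. Uvrag, a subunit of the Vps34 complex of endosomes, was at 228 CPM (220 to 235) and 243 CPM (233 to 253) in macrophage-like cells. Neutrophil-like cells were at 113 CPM (88.7 to 141) and 199 CPM (161 to 244), so that their interval overlapped that of macrophage-like cells in MCT1-KO and not in FLOX. Endothelial-like cells were at 129 and 112 CPM and the other classes at 60.3 to 79.9 CPM. In barcodes of free RNA Uvrag was at 24.8 and 25.7 CPM. The dendritic-like cells, 65 and 27 in number and outside the comparison, held more, at 307 CPM (270 to 348) and 324 CPM (255 to 407). The 24 lysosomal hydrolases and membrane proteins of the related list were likewise highest in macrophage-like and lowest in T/NK-like cells, with 16892 and 17117 CPM against 1776 and 1331 CPM.

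PSC-like cells were marked by Map1lc3a and Wipi1. Map1lc3a, the LC3A gene, was at 232 CPM (213 to 253) in FLOX and 224 CPM (205 to 244) in MCT1-KO, and keratin-positive cells were second at 110 and 119 CPM. Wipi1, which binds the lipid made by Vps34, was at 83.4 CPM (71.9 to 96.2) and 77.4 CPM (66.4 to 89.6) in PSC-like cells. Endothelial-like cells were at 59.3 CPM (39.7 to 85.1) and 37.3 CPM (20.4 to 62.5), so that their intervals overlapped those of PSC-like cells in FLOX and not in MCT1-KO. Keratin-positive cells were at 37.1 and 39.0 CPM. T/NK-like cells held few Wipi1 UMIs, 4 and 5. Free RNA held 132 and 143 CPM of Map1lc3a and 15.5 and 19.9 CPM of Wipi1, in each case below the PSC-like level.

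Sqstm1, the p62 gene, separated PSC-like and keratin-positive cells from the rest. It was at 518 CPM (488 to 548) and 633 CPM (601 to 666) in PSC-like cells and at 696 CPM (686 to 705) and 618 CPM (612 to 625) in keratin-positive cells. All other classes held 182 to 318 CPM, and free RNA held 225 and 219 CPM. Keratin-positive cells were above PSC-like cells in FLOX, and in MCT1-KO the intervals of these classes overlapped. T/NK-like cells were low in both lysosomal membrane genes. Lamp1 was at 73.7 and 53.1 CPM there and Lamp2 at 57.2 and 40.5 CPM. Both genes together stood at 131 and 93.5 CPM in T/NK-like cells and at 317 to 976 CPM in the other compared classes.

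**Figure D2:**
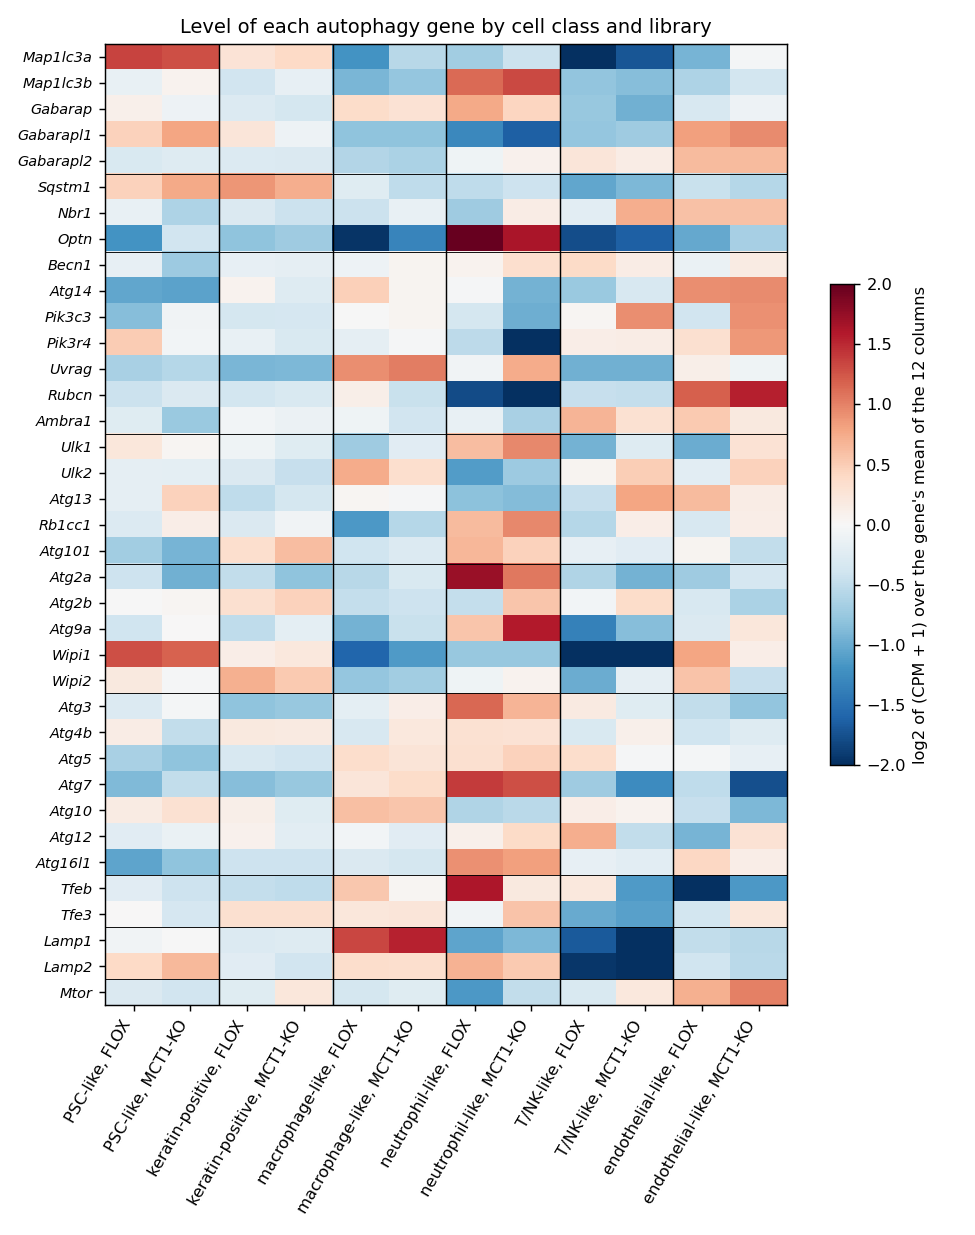
Heat map of the 37 genes (rows, grouped by role with thin lines) in 6 classes and 2 libraries (columns); color gives log2 of CPM + 1 over the mean of the gene over the 12 columns, from blue (low) to red (high), and cut at 2 in either direction. Map1lc3a and Wipi1 are red in both PSC-like columns, Lamp1 and Uvrag in both macrophage-like columns, Map1lc3b, Optn, Atg2a and Atg7 in both neutrophil-like columns, and Lamp1 and Lamp2 are blue in both T/NK-like columns.

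The second question was which members differed between the libraries in PSC-like cells. A gene was counted as higher or lower when its CPM ratio was at or past 1.5-fold and it had at least 50 UMIs over both libraries. Of the 33 members with that many UMIs, 2 were higher (Optn and Atg13), 3 were lower (Pik3r4, Atg2a and Atg4b) and 28 lay within 1.5-fold. Over all 7940 genes with that many UMIs, 9.31% were higher and 13.3% were lower. The median ratio was 1.03 over the members and 0.946 over all genes. The counts thus lay near the background, and no member reached 2-fold among the 33. Atg14, Pik3c3, Rubcn and Tfeb had too few UMIs for this count.

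**Figure D3:**
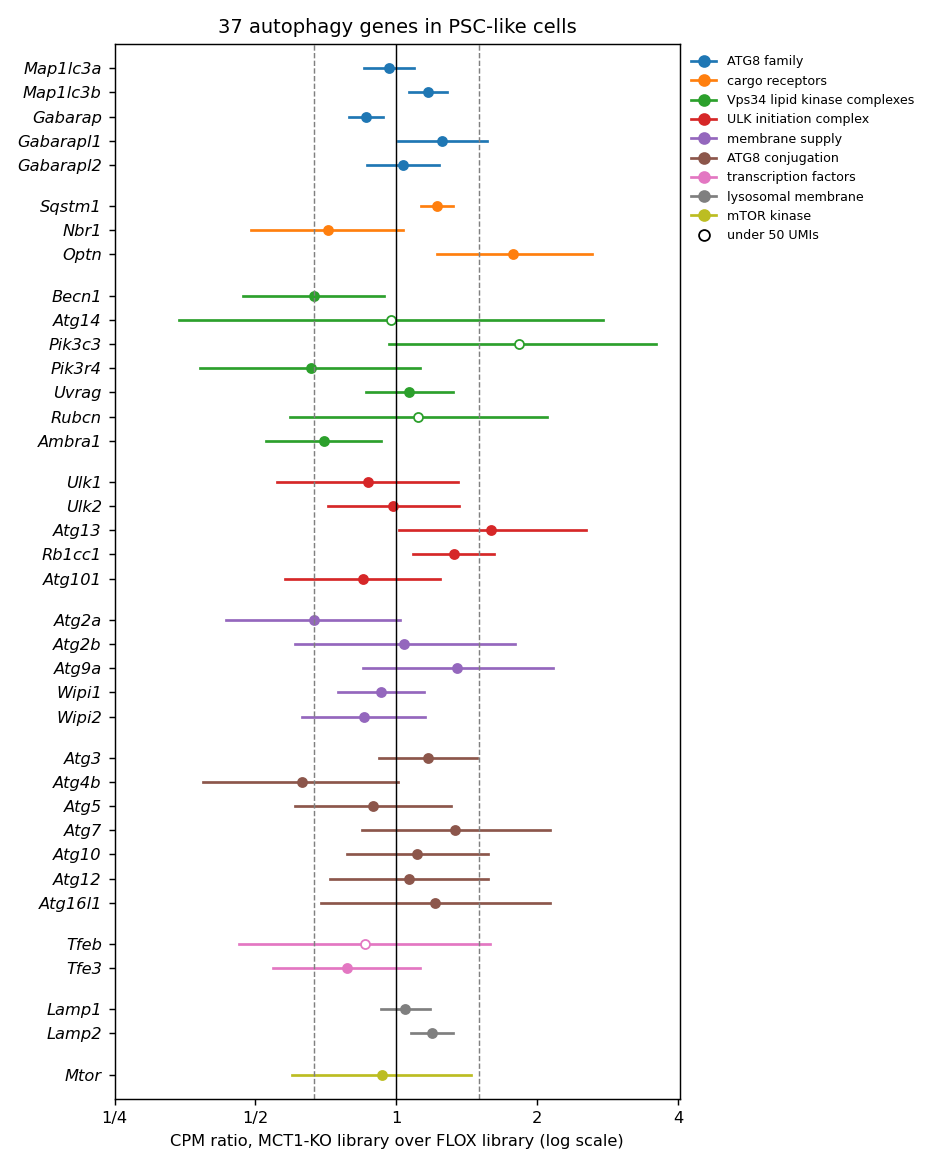
CPM ratio of MCT1-KO over FLOX (horizontal log axis) for each of the 37 genes in PSC-like cells, colored by role, with exact 95% counting intervals as bars; dashed lines mark 1.5-fold in either direction and open circles the 4 genes with under 50 UMIs. Most points lie between the dashed lines, with Optn at 1.78 and Atg13 at 1.59 beyond the upper line and Atg4b at 0.629, Pik3r4 at 0.658 and Atg2a at 0.667 at or beyond the lower one.

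Among the ATG8 family, Map1lc3b had 792 and 950 UMIs in PSC-like cells, or 351 CPM (327 to 377) in FLOX against 411 CPM (385 to 438) in MCT1-KO, with a ratio of 1.17 (1.06 to 1.29). Gabarap, which acts with its relatives in closing and fusing autophagosomes, went the other way. It was at 539 CPM (510 to 571) in FLOX and 464 CPM (437 to 493) in MCT1-KO, a ratio of 0.860 (0.792 to 0.935). Gabarapl1 had 153 and 197 UMIs and a ratio of 1.25 (1.01 to 1.56). Map1lc3a (0.967) and Gabarapl2 (1.03, 0.865 to 1.24) had intervals that held 1. The 5 genes together stood at 1299 and 1296 CPM, a ratio of 0.998 (0.948 to 1.05), so that the summed ATG8 level was the same within counting error. The Map1lc3b and Gabarap ratios had the same direction in keratin-positive cells and in free RNA. Map1lc3b was at 1.17 (1.14 to 1.20) in keratin-positive cells and 1.14 (1.11 to 1.17) in free RNA, and Gabarap at 0.950 (0.929 to 0.971) and 0.835 (0.818 to 0.853).

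Of the cargo receptors, Sqstm1 had 1167 and 1465 UMIs and a ratio of 1.22 (1.13 to 1.32). Optn had 45 and 82 UMIs, which is 19.96 CPM (14.6 to 26.7) in FLOX against 35.4 CPM (28.2 to 44.0) in MCT1-KO, with a ratio of 1.78 (1.22 to 2.61). Nbr1, a receptor for ubiquitinated cargo like p62, had 71 and 52 UMIs and a ratio of 0.713 (0.489 to 1.03). The higher Sqstm1 and Optn values depended on which cells counted as PSC-like. In PSC-like cells with no Krt8 or Krt18 UMI the Optn ratio was 1.06 (0.558 to 2.12), and in those with no UMI of the leukocyte gene Ptprc it was 1.49 (1.01 to 2.21). With class scores scaled at their 50th instead of their 90th percentile, which calls 282 and 314 cells, the Sqstm1 ratio was 1.03 (0.961 to 1.09), and with free RNA subtracted it was 1.06 (0.977 to 1.15). Apoe and Cd14 were also higher in these cells of MCT1-KO, and their part in the Sqstm1 ratio was not tested.

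The Vps34 lipid kinase complexes are the part of the machinery that the study ties to lactate, through lactylation of the Vps34 protein, which RNA counts do not show. Pik3c3, the Vps34 gene, was at 7.10 CPM (4.06 to 11.5, 16 UMIs) in FLOX against 13.0 CPM (8.75 to 18.5, 30 UMIs) in MCT1-KO. Its ratio of 1.83 (0.965 to 3.59) had an interval that held 1, so no difference was detectable at this depth in the whole class. With no upper gene limit, and with class scores scaled at their 50th percentile, Pik3c3 passed 50 UMIs and was past 1.5-fold higher. Atg14, which directs the kinase to autophagosome formation, had 9 UMIs in each library (0.974, 0.343 to 2.77). Becn1, the Beclin 1 gene, had 86 and 59 UMIs, which is 38.2 CPM (30.5 to 47.1) in FLOX against 25.5 CPM (19.4 to 32.9) in MCT1-KO, with a ratio of 0.668 (0.472 to 0.942). Without the 8% of cells of each class with the most UMIs the interval of Becn1 held 1 (0.732, 0.495 to 1.08). Over 12 alternatives the Becn1 ratio ran from 0.441 to 0.779. Ambra1, an activator of the Beclin 1 complex, had 124 and 89 UMIs and a ratio of 0.699 (0.526 to 0.925). Pik3r4, the scaffold subunit Vps15, had 37 and 25 UMIs (0.658, 0.380 to 1.12). Uvrag (1.07) and Rubcn (1.11), an inhibitor of the endosomal complex with 21 and 24 UMIs, had intervals that held 1. All 7 genes together were at 205 CPM (187 to 225) in FLOX against 182 CPM (165 to 200) in MCT1-KO, with a ratio of 0.888 (0.776 to 1.02).

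In the ULK initiation complex, Rb1cc1, the scaffold FIP200, had 177 and 241 UMIs, which is 78.5 CPM (67.4 to 91.0) in FLOX against 104 CPM (91.4 to 118) in MCT1-KO, with a ratio of 1.33 (1.09 to 1.62). In PSC-like cells with and without an Acta2 UMI, compared below, the intervals of the Rb1cc1 ratio both held 1. Atg13, the adaptor of the kinase, had 33 and 54 UMIs and a ratio of 1.59 (1.02 to 2.54). The kinases Ulk1 (0.868) and Ulk2 (0.986) and the stabilizing subunit Atg101 (0.848) had intervals that held 1. With free RNA subtracted the Atg101 ratio was 1.71 (0.981 to 3.10), so that its direction is not known. The 5 genes together gave 177 and 204 CPM, for a ratio of 1.15 (1.01 to 1.32). The kinase Mtor, which restrains ULK1 in fed cells, had 45 and 43 UMIs in PSC-like cells and a ratio of 0.931 (0.598 to 1.45).

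Genes that supply or shape the membrane showed no ratio with an interval clear of 1. Atg2a was at 25.3 and 16.9 CPM (0.667, 0.432 to 1.02), while Atg2b (1.04), Atg9a (1.35), the lipid scramblase of the vesicles that seed the membrane, Wipi1 (0.928) and Wipi2 (0.852) lay within 1.5-fold. The conjugation genes were similar. Atg4b, the protease that trims ATG8 proteins, had 48 and 31 UMIs (0.629, 0.387 to 1.01). Atg5 had 60 and 55 UMIs (0.893, 0.608 to 1.31) and Atg7 had 35 and 48 UMIs (1.34, 0.846 to 2.13). Atg3 (1.17), Atg10 (1.11), Atg12 (1.06) and Atg16l1 (1.21) also had intervals that held 1, and the 7 genes summed to a ratio of 1.06 (0.927 to 1.21). In PSC-like cells with no Krt8 or Krt18 UMI the ratios were 1.39 (0.652 to 3.22) for Atg5, 0.867 (0.572 to 1.33) for Atg3 and 2.06 (0.665 to 8.47) for Atg2b, all with intervals that held 1.

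The transcription factors Tfeb, with 25 and 22 UMIs, and Tfe3, with 72 and 58, had ratios of 0.857 (0.461 to 1.58) and 0.785 (0.546 to 1.12). Of the lysosomal membrane genes, Lamp2, needed for fusion and for chaperone-mediated autophagy, was at 296 CPM (274 to 320) in FLOX against 353 CPM (329 to 378) in MCT1-KO, with a ratio of 1.19 (1.07 to 1.32). Lamp1 was at 227 and 238 CPM, a ratio of 1.05 (0.926 to 1.18). The part of the higher Apoe and Cd14 levels in the Lamp2 ratio was not tested.

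**Figure D4:**
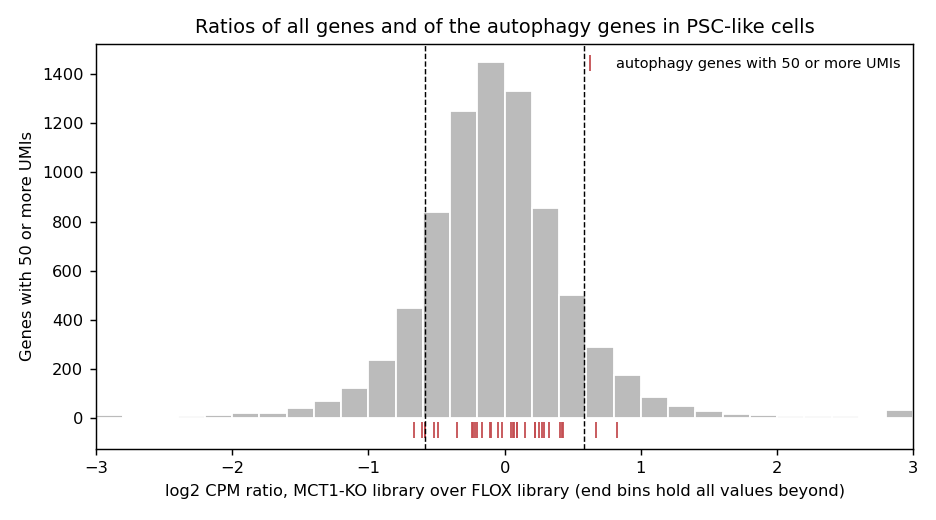
Number of genes passing the minimum of 50 UMIs in PSC-like cells (vertical axis) by log2 CPM ratio of MCT1-KO over FLOX (horizontal axis), with the 33 autophagy genes as red ticks and dashed lines at 1.5-fold; the end bins hold all values beyond. The ticks lie in the middle of the distribution, which holds the 7938 of these genes with UMIs in both libraries.

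Shares of PSC-like cells with a UMI were also compared at equal depth. Every cell was thinned to 1000 UMIs, which left out 15 and 14 shallower cells. Map1lc3b was then found in 57 of 188 cells (30.3%, 23.8 to 37.4) and 95 of 276 cells (34.4%, 28.8 to 40.4). Sqstm1 was found in 36.7% (29.8 to 44.0) and 37.3% (31.6 to 43.3). Becn1 was found in 4.26% (1.85 to 8.21) and 2.54% (1.03 to 5.16), Pik3c3 in 1.06% and 1.45%, Atg5 in 3.19% and 1.45% and Atg7 in 1.60% and 2.17%. At this depth all of these intervals overlapped between libraries. Thinned to 2000 UMIs, Becn1 was found in 15 of 178 cells (8.43%, 4.79 to 13.5) and 5 of 263 cells (1.90%, 0.620 to 4.38), and those intervals did not overlap. Unthinned, Map1lc3b UMIs were found in 81.8% and 85.5% of PSC-like cells and Pik3c3 UMIs in 7.88% and 9.31%. No class lacks these genes, so no background share could be taken from one. Free RNA held 368 and 417 CPM of Map1lc3b, 225 and 219 of Sqstm1, 40.6 and 41.3 of Becn1, 10.1 and 11.5 of Pik3c3, 22.2 and 21.7 of Atg5 and 16.2 and 14.3 of Atg7. The Map1lc3b and Becn1 levels of PSC-like cells were not above these in either library, and how much of each share came from free RNA is not known.

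PSC-like cells were also divided by Acta2, the smooth muscle actin gene used as a mark of activated PSCs and not used to call the class. An Acta2 UMI was present in 147 of the 203 cells in FLOX and in 118 of the 290 in MCT1-KO. Keratin-positive cells also held Acta2 at 875 and 705 CPM, so that it is not a mark of PSCs alone in these tumors, and its level in PSC-like cells was 1090 CPM in FLOX against 292 CPM in MCT1-KO. Cells with an Acta2 UMI were deeper in both libraries, at medians of 14314 against 4488 UMIs in FLOX and 9577 against 6289 in MCT1-KO. The part of depth and of the Acta2 level in the values by Acta2 was not tested. The summed members differed little between cells with and without Acta2, by a ratio of 0.994 (0.932 to 1.06) in FLOX and 0.926 (0.885 to 0.968) in MCT1-KO. Lamp2 was lower in cells with Acta2 in both libraries, with ratios of 0.720 (0.594 to 0.878) and 0.830 (0.721 to 0.955). Rb1cc1 was likewise lower, with ratios of 0.588 (0.412 to 0.856) and 0.733 (0.561 to 0.953).

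The libraries were also compared within PSC-like cells with and without Acta2. In cells without it Sqstm1 was at 465 CPM (396 to 544; 158 UMIs) in FLOX and 711 CPM (664 to 761; 836 UMIs) in MCT1-KO, a ratio of 1.53 (1.29 to 1.82). In cells with Acta2 it was at 527 CPM (495 to 561) in FLOX against 553 CPM (510 to 598) in MCT1-KO, with a ratio of 1.05 (0.948 to 1.16). The Map1lc3b ratios were 1.12 (0.923 to 1.37) without and 1.15 (1.01 to 1.29) with Acta2. Those of Lamp2 were 0.991 (0.814 to 1.21) and 1.14 (0.997 to 1.31). Rb1cc1 was at 0.993 (0.697 to 1.44) without and 1.24 (0.946 to 1.61) with Acta2. Both Rb1cc1 intervals held 1, unlike that of the whole class. Pik3c3 had 10 and 17 UMIs in cells with Acta2, a ratio of 2.86 (1.24 to 6.99). In cells without Acta2 it had 6 and 13 UMIs, a ratio of 0.626 (0.222 to 2.01). Both pairs of counts are under the minimum of UMIs set for the whole class, so neither ratio counts as higher or lower. Atg3 was at 1.44 (1.06 to 1.95) with and at 0.639 (0.418 to 0.995) without Acta2. Other members were lower in MCT1-KO among cells with Acta2, with Ambra1 (107 and 33 UMIs) at 0.519 (0.340 to 0.773), Atg2a at 0.561 (0.304 to 0.987), Tfe3 at 0.597 (0.349 to 0.985) and Gabarap at 0.885 (0.796 to 0.982). Without Acta2 these genes were at 0.951 (0.545 to 1.75), 1.06 (0.416 to 3.19), 1.04 (0.505 to 2.35) and 0.899 (0.754 to 1.08). Of the 37 members, 7 had an interval clear of 1 in cells with Acta2 and 2 in cells without it. This count had no minimum of UMIs, so it includes Pik3c3 in cells with Acta2. The share of all genes with such an interval was not computed, so the count is not a result about the members. In FLOX the members held 6123 UMIs in cells with Acta2 and 1092 in cells without it, so that intervals were wider in the latter. The division by Acta2 was made with values of Sqstm1 in PSC-like cells already known, and no difference between cells with and without Acta2 was tested.

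**Figure D5:**
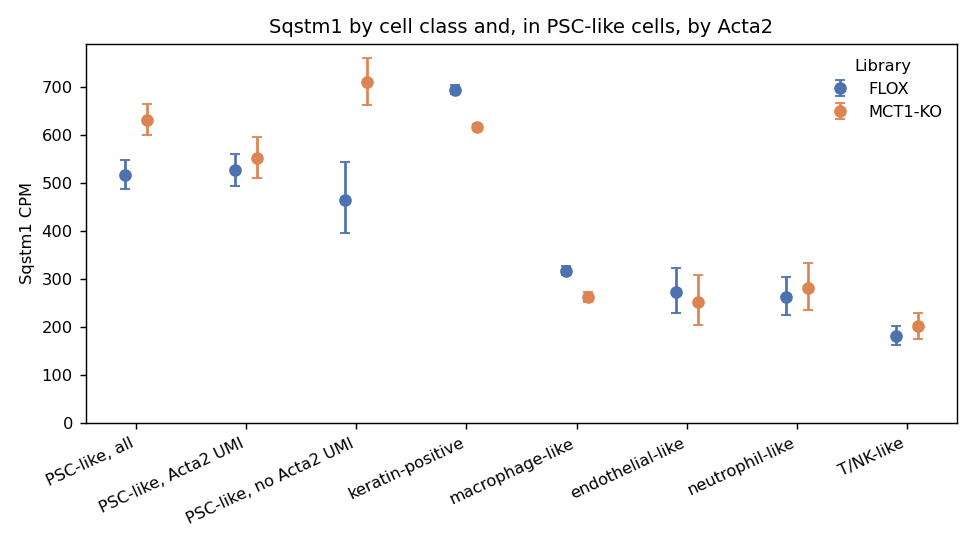
Sqstm1 CPM (vertical axis, linear from 0) in PSC-like cells, in those with and without an Acta2 UMI, and in the other classes, with FLOX in blue and MCT1-KO in orange; bars are exact 95% counting intervals. PSC-like cells without Acta2 stand at 465 and 711 CPM while those with Acta2 stand at 527 and 553 CPM, and keratin-positive and macrophage-like cells are lower in MCT1-KO.

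The other classes were read in the same way. In keratin-positive cells all 37 members had at least 50 UMIs and none reached 1.5-fold, where 6.32% of 13265 genes were higher and 7.1% lower. The ratios ran from 0.765 (Atg10) to 1.40 (Mtor), and Sqstm1 stood at 0.889 (0.874 to 0.904). Becn1 (0.988), Pik3c3 (1.01), Atg5 (0.962) and Atg7 (1.07) lay near 1, and Atg14, with 289 and 420 UMIs, was at 0.780 (0.670 to 0.909). The Mtor ratio in free RNA was 1.44 (1.27 to 1.63), close to that of these cells.

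In macrophage-like cells 3 of 37 members were higher and 1 was lower, against 6.14% and 10.1% of 11197 genes. Map1lc3a was at 39.3 CPM (36.2 to 42.6) in FLOX against 61.6 CPM (56.9 to 66.6) in MCT1-KO, with a ratio of 1.57 (1.40 to 1.76). Optn had a ratio of 1.62 (1.30 to 2.00) with 169 and 184 UMIs, and Rb1cc1 one of 1.52 (1.36 to 1.70) with 633 and 648. Rubcn had 211 and 93 UMIs and a ratio of 0.654 (0.507 to 0.839). Sqstm1 was at 0.826 (0.787 to 0.866) and Map1lc3b at 1.11 (1.05 to 1.17), the latter at 1.91 (1.77 to 2.06) with free RNA subtracted. Becn1 (1.11), Pik3c3 (1.05), Atg5 (0.933) and Atg7 (1.09) had intervals that held 1, and Atg14 was at 0.727 (0.565 to 0.931). Optn and Rb1cc1 thus pointed the same way in macrophage-like and PSC-like cells, and free RNA gave 1.27 (1.06 to 1.52) and 1.13 (1.01 to 1.27) for them.

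T/NK-like cells had the largest share of members past 1.5-fold, 6 higher and 1 lower of 26, where 6.09% of 6370 genes were higher and 9.09% were lower. These members rest on few UMIs. The 6 leukocyte genes, among them Lyz2 and C1qa of macrophages, summed to 1809 and 1085 CPM in T/NK-like cells, where 5 of the 6 were past 1.5-fold lower, and their part in these ratios was not tested. Atg13 had 21 and 33 UMIs (2.49, 1.40 to 4.54), Nbr1 53 and 65 (1.95, 1.33 to 2.85), Pik3c3 25 and 30 (1.90, 1.08 to 3.38) and Wipi2 32 and 36 (1.79, 1.08 to 2.97). Rb1cc1 had 112 and 116 UMIs (1.64, 1.26 to 2.15) and Map1lc3a 31 and 30 (1.54, 0.898 to 2.62). Atg12, the ubiquitin-like protein joined to ATG5, had 83 and 22 UMIs, which is 47.0 CPM (37.5 to 58.3) in FLOX against 19.8 CPM (12.4 to 30.0) in MCT1-KO, with a ratio of 0.421 (0.250 to 0.680). In these cells the 5 genes of the ULK complex summed to 166 and 244 CPM (1.47, 1.24 to 1.74) and the 7 conjugation genes to 262 and 200 CPM (0.761, 0.646 to 0.895). Map1lc3b (0.951), Sqstm1 (1.11), Becn1 (0.850) and Atg5 (0.769) had intervals that held 1. With free RNA subtracted the Map1lc3b ratio was 1.63 (1.29 to 2.07) and that of Wipi2 5.15 (2.21 to 14.0), so that neither size is firm. Atg14, with 9 and 8 UMIs, and Atg7, with 31 and 13, were under the minimum.

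In neutrophil-like cells 18 members had enough UMIs. Uvrag was higher, with 75 and 92 UMIs (1.77, 1.29 to 2.43), and Atg2a was lower, with 76 and 33 (0.625, 0.402 to 0.953), where 16.3% of 2892 genes were higher and 11.0% lower. Map1lc3b (1.14, 1.00 to 1.29), Sqstm1 (1.07), Becn1 (1.20), Atg5 (1.11) and Atg7 (0.924) lay within 1.5-fold. In endothelial-like cells Map1lc3a, with 23 and 33 UMIs, was higher (1.87, 1.06 to 3.33) and none of the 11 members with enough UMIs was lower, against 7.26% and 13.4% of 2908 genes. Map1lc3b (1.19) and Sqstm1 (0.924) had intervals that held 1 there, and Becn1 (19 and 18 UMIs), Atg5 (20 and 14) and Atg7 (10 and 3) were under the minimum. In both classes Pik3c3 and Atg14 had 2 to 10 UMIs per library, too few for a ratio.

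The wider pathway was read in PSC-like cells by lists that do not contain the members, against the same background of 9.31% of all genes higher and 13.3% lower. The genes named from these lists are those past 1.5-fold and are not set apart from that background. Of 17 other autophagosome genes with at least 50 UMIs, 2 were higher and 2 lower. Wdr45, a relative of the WIPI proteins, was at 1.95 (1.18 to 3.29) and Atg4a, another ATG8 protease, at 1.72 (0.979 to 3.09). Nrbf2, a further subunit of the Vps34 complex that holds Atg14, was at 0.530 (0.357 to 0.778) and the fusion protein gene Vamp8 at 0.666 (0.546 to 0.811). Of 15 selective autophagy receptors and their regulators 1 was higher, the mitophagy kinase Pink1 at 1.63 (1.24 to 2.16), and none was lower. The sums of these lists differed little, with ratios of 0.968 (0.915 to 1.03) and 0.999 (0.949 to 1.05).

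Of 22 genes of mTORC1 and AMPK inputs, which pass nutrient and energy state to the ULK complex, 2 were higher and 1 was lower. Over all genes 22.6% were past 1.5-fold in either direction, and the difference in share was not tested. Rragc, a Rag GTPase that recruits mTORC1 to lysosomes, was at 1.71 (1.24 to 2.38), Fnip1, a folliculin partner, at 1.54 (1.29 to 1.84) and Prkaa1, a catalytic AMPK subunit, at 0.644 (0.418 to 0.981). The sum had a ratio of 0.988 (0.936 to 1.04).

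The lysosomal lists held the largest single differences. Of 23 lysosomal hydrolases and membrane proteins with enough UMIs, the protease Ctsl was at 1012 CPM (971 to 1054) in FLOX against 1723 CPM (1669 to 1777) in MCT1-KO, with a ratio of 1.70 (1.62 to 1.79). In macrophage-like cells Ctsl also had the highest ratio of this list, 1.63. The glycogen-degrading enzyme Gaa was at 1.59 (1.31 to 1.93), and the lipase Lipa, with 253 and 100 UMIs, at 0.385 (0.302 to 0.487). As a sum the list was at 5751 and 6439 CPM, for a ratio of 1.12 (1.09 to 1.15), where its median ratio over genes was 0.929. Without Ctsl, a sum chosen after its value was seen, the list was at 4740 and 4717 CPM, a ratio of 0.995 (0.969 to 1.02). Apoe and Cd14 were higher in the same cells of MCT1-KO, and their part in the Ctsl ratio was not tested. Of the 15 V-ATPase subunits, Atp6v1h (2.18, 1.75 to 2.72), Atp6v0a1 (1.93, 1.42 to 2.66) and Atp6v1b2 (1.93, 1.49 to 2.51) were higher and Atp6v1c1 (0.595, 0.405 to 0.866) was lower. The 15 subunits reached 1649 and 1564 CPM in sum, for a ratio of 0.948 (0.905 to 0.993), with a median over genes of 0.933. Set against the 22.6% of all genes past 1.5-fold in either direction, 4 of 15 subunits lie near the background.

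Within macrophage-like cells the members were also set against Arg1, a gene of a macrophage state common in tumors. Cells with an Arg1 UMI held less of the 7 Vps34 complex genes than cells without one in both libraries, at 349 against 403 CPM in FLOX (0.866, 0.821 to 0.913) and 336 against 409 CPM in MCT1-KO (0.822, 0.769 to 0.878). The lysosomal membrane genes went the other way, with ratios of 1.07 (1.03 to 1.11) and 1.07 (1.03 to 1.12). The sum over all 37 members was near 1 in both libraries, at 1.01 (0.990 to 1.03) and 0.991 (0.970 to 1.01). Cells with Arg1 were deeper, at medians of 7547 against 5034 UMIs in FLOX and 5772 against 4417 in MCT1-KO. They also held less of the heat shock genes (ratios of 0.716 and 0.896), of mitochondrial transcripts (0.852 and 0.963) and of the acinar genes (0.584 and 0.899). The part of these measures was not tested.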

How the data were processed

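Per the labels and methods, reads were cleaned by Fastp, and SeekOneTools gave a UMI count for each gene in each barcode. The authors deposited these raw counts without normalization, beside lists of barcodes and of mouse Ensembl identifiers with symbols. Methods and labels name the human build GRCh38, which the mouse identifiers contradict, and the mouse annotation used for counting is not given in the sources used here. The submitters' processing notes also name Seurat 4.0.0. Methods and labels differ on the library kit. How reads shared with pseudogenes were counted is not given in the sources used here.

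The libraries held 177334432 and 151118092 UMIs. Barcodes were kept with at least 500 UMIs, 200 to 5000 genes and at most 8% mitochondrial UMIs. The UMIs of a class's markers per 10000 were divided by the 90th percentile of that score among cells with at least 5 of its markers. A cell was called with a score of at least 0.1, at least 2 times the next class, and at least 3 markers. These limits were set after class sizes and some values, Sqstm1 and Map1lc3b in PSC-like cells among them, had been seen. Members and lists were chosen with earlier results of these data known. No doublet caller was run. Close to a limit of this rule lay 18 and 18 PSC-like cells, and 25 barcodes occurred among called cells of both libraries.

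CPM were computed from UMIs summed over the cells of a class. Intervals were exact Poisson for CPM, conditional exact for ratios and Clopper-Pearson for shares (Python 3.11.15, scipy 1.17.1). Only the ratio intervals were tested on simulated data, which were Poisson counts without variation between cells or libraries. PCR duplicates are removed by UMIs, and intervals cover counting error only. All members were named in PSC-like cells. In other classes those past 1.5-fold with at least 50 UMIs, Map1lc3b, Sqstm1, Becn1, Pik3c3, Atg14, Atg5 and Atg7 were named, and in related lists up to 3 genes per direction. Members named for a class profile were chosen after their values were seen. Alternatives changed the filters, the class rule, the total, free RNA and the members summed.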

Additional observations from a re-analysis of the deposited data

Results flagged for a closer look

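For 8 members the ratio of MCT1-KO over FLOX lay above 1 in one class and below 1 in another, with both counting intervals clear of 1. The share of all genes that meet this rule was not computed, so the count is not a result about the members. Keratin-positive cells held 29676016 and 55281067 UMIs, so their counting intervals are narrow and leave out 1 even for ratios close to it. Whether the classes differ was not tested, since each library is 1 sample. Sqstm1 had a ratio of 1.22 (1.13 to 1.32) in PSC-like cells and 0.826 (0.787 to 0.866) in macrophage-like cells. Over 12 alternatives the PSC-like ratio of Sqstm1 went as low as 1.03. Lamp2 had 1.19 (1.07 to 1.32) in PSC-like and 0.903 (0.873 to 0.933) in keratin-positive cells. Gabarapl1 had 1.25 (1.01 to 1.56) in PSC-like and 0.783 (0.737 to 0.833) in keratin-positive cells. Lamp1 was at 1.15 (1.12 to 1.19) in macrophage-like and 0.720 (0.520 to 0.987) in T/NK-like cells. Lamp1 is highest in macrophage-like cells, and the 6 leukocyte genes were at 1809 and 1085 CPM in T/NK-like cells, whose part in the lower Lamp1 ratio was not tested. Nbr1 was at 1.95 (1.33 to 2.85) in T/NK-like and 0.910 (0.835 to 0.992) in keratin-positive cells, and Wipi2 at 1.79 (1.08 to 2.97) and 0.885 (0.834 to 0.939) in the same classes. Ulk1 had 1.44 (1.14 to 1.81) in macrophage-like and 0.883 (0.788 to 0.991) in keratin-positive cells, and Atg2a had 1.20 (1.02 to 1.41) in macrophage-like and 0.625 (0.402 to 0.953) in neutrophil-like cells. Of these, 3 ratios were past 1.5-fold: Nbr1 and Wipi2 in T/NK-like cells and Atg2a in neutrophil-like cells.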

How the results depend on the processing

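No paired analysis was possible because each group has 1 library. In PSC-like cells the summed ratio of 1.06 lay between 1.01 and 1.08 over 14 alternatives, and outside its counting interval only with free RNA subtracted (1.01). The sum without Sqstm1, Lamp1 and Lamp2 is not among these alternatives, and at 2160 and 2153 CPM it was not higher in MCT1-KO. Subtracting free RNA takes 27.6% of the UMIs of PSC-like cells in FLOX and 6.32% in MCT1-KO, and 42.3% and 12.6% of those of T/NK-like cells. Intervals with free RNA subtracted are not exact, since they leave out the error of the subtraction. The subtraction also gave 0.963 in keratin-positive, 1.07 in neutrophil-like and 1.25 in T/NK-like cells, and put macrophage-like cells below 1 (0.980). The keratin-positive ratio turned above 1 without an upper gene limit (1.02) and with the mean of per-cell CPM (1.00), so that its direction is not firm, and was 0.991 without its 3 most counted members. Without those, macrophage-like cells gave 1.06. Neutrophil-like cells gave 0.940 without the 8% of cells with the most UMIs. Against 5 members past 1.5-fold in PSC-like cells, 9 of 32 were past it with free RNA subtracted and 0 at fold 2 or with at least 200 UMIs, and the other alternatives gave 4 to 6. Which members were counted changed with the setting, and Becn1 or Pik3c3 were among them in several. The share of all genes past the fold also moved, from 22.6% to 29.0% with free RNA subtracted, 7.12% at fold 2 and 17.7% with at least 200 UMIs. The exception was cells without Krt8 or Krt18 UMIs, with 1 (Becn1) of 18, where 26.9% of all genes were past it. That alternative and those on collagen UMIs and the 50th percentile were chosen after seeing the data. No replicate exists to test any of these counts. Endothelial-like cells stayed between 1.03 and 1.07 over 10 alternatives. Their sum without Sqstm1, Lamp1 and Lamp2, at 2021 and 2207 CPM, is not among these. Of 734 alternatives of single members and shares, 687 stayed within the counting interval and 47 moved out of it. Of 706 alternatives of single member ratios, 34 crossed 1, and for each of these the interval of the ratio as reported held 1. Without Ctsl the lysosomal sum in PSC-like cells turned to 0.995. Depth limits the rarest members, since 9 UMIs of Atg14 allow a ratio from 0.343 to 2.77.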
